A study of Mus musculus with 14 samples.

Results

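The genes described are the fatty acid elongases Elovl1 to Elovl7, the 7 genes of that family among the 35275 genes of an RNA sequencing table of mouse brown adipose tissue. They were chosen by name, and each was matched by its symbol to the Ensembl identifier in the table. Of the 7 members, 4 (Elovl1, Elovl3, Elovl5 and Elovl6) reached the minimum level for testing (1 FPKM or more in 3 or more of the 14 animals), and 3 (Elovl2, Elovl4 and Elovl7) did not. Elovl3 passed that minimum through the animals at 22 °C, where it was high. FPKM is the number of fragments per unit of gene length and of sequencing depth.

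The study deleted Lrpprc, a nuclear gene whose protein stabilises mitochondrial messenger RNA, in cells that express Ucp1. All animals were C57BL/6 mice aged 8 weeks with floxed Lrpprc alleles (LrpprcFF). Knockouts also carried the Ucp1-Cre transgene (LrpprcFF Ucp1-Cre), which drives recombination in brown adipocytes, and controls did not. The animals were kept at 22 °C (4 controls and 4 knockouts) or at thermoneutrality, 30 °C (3 controls and 3 knockouts). Brown adipocytes are the labelled cell type, but the RNA came from homogenized tissue, and no step that isolates cells is described. Fewer cells of a type and less RNA per cell cannot be told apart in such samples.

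Elongases sit in the membrane of the endoplasmic reticulum and join malonyl-CoA to a fatty acyl-CoA, the condensation that starts each round of chain lengthening. The members differ in the chains they accept: Elovl6 acts on palmitate, Elovl1, Elovl3 and Elovl7 on longer saturated and monounsaturated chains, Elovl5 and Elovl2 on polyunsaturated chains, and Elovl4 makes the very longest chains of retina and skin. Elovl3 is known as a cold-induced gene of brown fat, and Elovl6 as a lipogenic gene that responds to the factors SREBP-1 and ChREBP.

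The promoters of 3 members are printed because Elovl6 and Elovl5 were both higher at 22 °C while Elovl1 was lower. The sequences come from RefSeq (GRCm38.p6), which held a promoter for 6 of the 7 members; Elovl3 had no entry. Each is the 250 bases before a transcription start on the + strand, 5′ to 3′: chr3:129532136-129532385 for Elovl6, chr9:77917115-77917364 for Elovl5, and chr4:118427843-118428092 for the first of 2 starts listed for Elovl1. Capitals mark matches on either strand to CCAAT (the NF-Y box), GGGCGG (the GC box bound by Sp1), CACGTG (an E-box), TCACNCCAC (a sterol element) and AGGTCA (bound by nuclear receptors).
Elovl6: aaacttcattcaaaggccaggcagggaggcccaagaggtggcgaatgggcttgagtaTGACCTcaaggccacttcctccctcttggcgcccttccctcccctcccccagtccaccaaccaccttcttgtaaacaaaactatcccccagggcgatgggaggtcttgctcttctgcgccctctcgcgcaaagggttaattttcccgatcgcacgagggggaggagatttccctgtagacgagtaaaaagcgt
Elovl5: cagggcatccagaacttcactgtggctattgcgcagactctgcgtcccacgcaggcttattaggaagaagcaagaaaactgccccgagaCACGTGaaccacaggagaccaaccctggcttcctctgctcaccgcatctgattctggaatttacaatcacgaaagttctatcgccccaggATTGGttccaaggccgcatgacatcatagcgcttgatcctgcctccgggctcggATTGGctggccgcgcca
Elovl1: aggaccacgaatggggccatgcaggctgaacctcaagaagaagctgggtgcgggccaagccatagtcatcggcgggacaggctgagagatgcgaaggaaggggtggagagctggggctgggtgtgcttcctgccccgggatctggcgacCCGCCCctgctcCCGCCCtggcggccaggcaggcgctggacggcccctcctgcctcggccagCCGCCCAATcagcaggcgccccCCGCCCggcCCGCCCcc

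The Elovl6 window held 1 AGGTCA match and none of the other motifs. The Elovl5 window held 2 CCAAT matches and 1 CACGTG match. The printed Elovl1 window was the richest in G and C (72.0%, against 56.4% for Elovl6 and 55.6% for Elovl5). It held 5 GGGCGG matches and 1 CCAAT match, which overlaps a GC box. The window of the second Elovl1 start, not printed, was 58.0% G and C and held 2 GGGCGG matches and 1 AGGTCA match. Among 32851 promoter windows of the same length, CCAAT occurred in 33.8%, GGGCGG in 32.7%, AGGTCA in 14%, CACGTG in 6.02% and TCACNCCAC in 1.05%. The matches describe letters and do not show binding.

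Libraries held 15.9 to 21.3 M fragments, as recovered from the steps between low values. Lrpprc was 10.4 ± 1.07 scaled FPKM (SD, n = 4) in knockouts and 42.4 ± 14.4 (SD, n = 4) in controls at 22 °C, and 6.98 ± 1.83 (SD, n = 3) against 31.7 ± 1.23 (SD, n = 3) at 30 °C, in the direction of the labels. Mitochondrial genes took 21.8% to 28.5% of the summed FPKM in controls and 2.04% to 5.34% in knockouts. All values below are therefore scaled to a common median ratio over nuclear genes. With FPKM as deposited the median gene was shifted by 0.24 (log2) in knockouts at 22 °C and by 0.31 at 30 °C. Identifiers of 2 of the 4 controls at 22 °C begin with R and all others with E; the labels do not say why. Xist was at most 0.0139 scaled FPKM in every 22 °C animal and 9.71 to 15.3 in every 30 °C animal, and Ddx3y, a Y-linked gene, was 16.3 to 23.9 at 22 °C and at most 0.0242 at 30 °C. The labels give no sex, so effects of housing temperature and of a sex difference cannot be told apart in any temperature comparison below. Summed levels of 12 skeletal muscle markers ran from 77.3 to 16456 scaled FPKM, with overlapping ranges between genotypes at each temperature. Summed levels of 12 macrophage markers were 66.4 to 102 in 22 °C controls, 114 to 259 in 22 °C knockouts, 149 to 479 in 30 °C controls and 772 to 2397 in 30 °C knockouts. Summed levels of 12 brown adipocyte markers, Ucp1 and Adipoq among them, were 20567 to 27139 in 22 °C controls and 16126 to 21286 in 22 °C knockouts. They were 15302 to 19066 in 30 °C controls and 8229 to 9993 in 30 °C knockouts. Against controls at 22 °C, 1 of the 12 was called higher and 1 lower in knockouts, with a median log2 difference of -0.08. At 30 °C, 0 were called higher and 6 lower (median -0.66). Of all tested genes, 1.97% were called at 22 °C and 14.1% at 30 °C. None of the 12 was at 0 throughout a group. Ucp1 itself, the uncoupling protein of brown fat, was 2115 ± 861 (SD, n = 4) and 2068 ± 876 (SD, n = 4) scaled FPKM in 22 °C controls and knockouts, and 806 ± 255 (SD, n = 3) and 317 ± 46.4 (SD, n = 3) at 30 °C.

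Elovl6 was the most abundant elongase in every group by mean level. FPKM are per unit of length, so members can be set side by side. Summed over the 7 members, the level was 265 ± 73.6 scaled FPKM in 22 °C controls (SD, n = 4), 259 ± 59.8 in 22 °C knockouts (SD, n = 4), 60.4 ± 5.62 in 30 °C controls (SD, n = 3) and 75.3 ± 10 in 30 °C knockouts (SD, n = 3). Elovl6 made up 70.3% ± 6.68 (SD, n = 4) of that sum in 22 °C controls and 47.0% ± 5.12 (SD, n = 3) in 30 °C controls. In those same groups Elovl5 went from 14.4% ± 2.03 to 31.7% ± 3.71, Elovl1 from 3.17% ± 1.87 to 19.7% ± 2.75, and Elovl3 from 12% ± 8.5 to 0.954% ± 1.04. At 30 °C the order of the 3 most abundant members was thus Elovl6, Elovl5, then Elovl1, in each of the 6 animals except 1 knockout, in which Elovl1 (23.7 scaled FPKM) lay just above Elovl5 (23.5). Elovl3 lay below these 3 in all 6 animals, and in control 1 (0.0746) also below Elovl7 (0.144) and Elovl4 (0.0929). At 22 °C the order below Elovl6 was not fixed, because Elovl3 ranged from 10.6 to 171 scaled FPKM across the 8 animals and Elovl5 from 22.8 to 47.3. In knockout 1 at 22 °C, Elovl3 alone made up 55.9% of the sum and exceeded Elovl6. Elovl2, Elovl4 and Elovl7 each stayed under 0.7% of the sum in every animal.

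**Figure D1:**
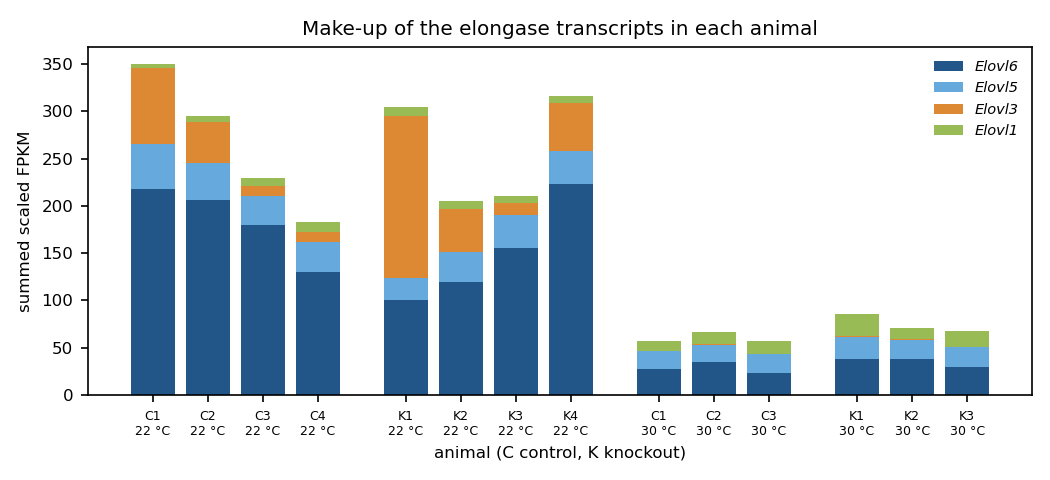
Summed scaled FPKM of Elovl6, Elovl5, Elovl3 and Elovl1 stacked in each animal (C control, K knockout; housing temperature under each bar); Elovl2, Elovl4 and Elovl7 are too low to draw. The 8 animals at 22 °C exceed all 6 at 30 °C, and the Elovl3 band is seen only at 22 °C, where its height varies between animals.

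Housing temperature was the comparison in which the elongases differed. All 4 tested members were called in controls and again in knockouts (limma, Benjamini-Hochberg adjusted p under 0.05): Elovl6, Elovl3 and Elovl5 were higher at 22 °C, and Elovl1 was lower. Among the 13079 genes tested, 38.8% were called in controls (18.2% higher and 20.5% lower at 22 °C) and 51.2% in knockouts (21.8% higher and 29.3% lower), so being called is common in these comparisons. By size, Elovl3 ranked 1 from the top of all tested genes in knockouts and 3 in controls, and Elovl6 ranked 34 and 8. Elovl3 entered the test only through its level at 22 °C, so its calls and ranks here were favoured by the filter. The 2 comparisons use different animals. The split of calls moved with the scaling: it was 2384 higher and 2687 lower in controls, 1738 and 3200 with FPKM as deposited, and 2724 and 2220 with quantile normalization; in knockouts it was 2855 and 3836, and 4203 and 2924 with quantile normalization. The directions of the 4 members held under each of these scalings.

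Elovl6 (ENSMUSG00000041220) lengthens palmitate to stearate. Its level was 218, 206, 180 and 130 scaled FPKM in the 22 °C controls and 27.5, 34.4 and 23.7 in the 30 °C controls. In knockouts it was 101, 120, 156 and 223 at 22 °C and 37.9, 38.1 and 29.6 at 30 °C. Every 22 °C animal was above every 30 °C animal in both genotypes. The ratio of means was 6.44 in controls (log2 fold change 2.63, SE 0.25, adjusted p = 3.73e-05, limma) and 4.26 in knockouts (2.0, SE 0.25, adjusted p = 7.85e-05).

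Elovl3 (ENSMUSG00000038754) makes saturated and monounsaturated very long chains. Its level was 80.4, 43.1, 10.8 and 10.6 scaled FPKM in the 22 °C controls, where the 2 low values belong to the R-identifier animals. At 30 °C the controls had 0.0746, 1.42 and 0.347, which rest on 2, 38 and 9 reads. The knockouts had 171, 44.9, 12.9 and 50.7 at 22 °C, and 0.620, 0.375 and 0.260 at 30 °C, from 22, 13 and 8 reads. The lowest 22 °C animal was thus several times above the highest 30 °C animal, and the groups did not overlap. The ratio of means was 58.9 in controls and 172 without the control with 38 reads, or 35.0 without the control at 80.4. It was 167 in knockouts and 86.4 without the knockout at 171. On the log2(scaled FPKM + 1) scale, which understates changes from such low levels, the difference was 4.12 in controls (SE 0.77, adjusted p = 0.0018, limma) and 5.11 in knockouts (SE 0.77, adjusted p = 0.000236). With a pseudocount of 0.1 these became 5.68 and 6.58.

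Elovl5 (ENSMUSG00000032349) works in the making of polyunsaturated chains and was the steadiest tested member at 30 °C. It had 47.3, 39.2, 30.5 and 32.0 scaled FPKM in 22 °C controls and 18.9, 18.4 and 19.8 in 30 °C controls, with no overlap (ratio of means 1.96; log2 fold change 0.91, SE 0.16, adjusted p = 0.00144, limma). Knockouts had 22.8, 31.6, 33.9 and 35.3 at 22 °C and 23.5, 20.5 and 20.9 at 30 °C, so that 1 knockout at 22 °C fell within the 30 °C range. The ratio of means in knockouts was 1.43 (log2 fold change 0.48, SE 0.16, adjusted p = 0.0252). That call was lost (adjusted p 0.0519 to 0.0754) when knockout 2, 3 or 4 at 22 °C or knockout 2 or 3 at 30 °C was left out, and also with a skeletal muscle score as covariate (0.0615) or a correction for transcript GC content (0.0943).

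Elovl1 (ENSMUSG00000006390), a broadly expressed elongase of saturated very long chains, went the other way. Controls had 4.92, 6.39, 7.96 and 10.4 scaled FPKM at 22 °C and 10.3, 12.1 and 13.1 at 30 °C, where 1 animal of each group touched the other's range. Knockouts had 9.86, 8.66, 7.59 and 7.80 at 22 °C and 23.7, 12.4 and 16.8 at 30 °C, with no overlap. The log2 fold change, 22 °C against 30 °C, was -0.65 in controls (SE 0.22, adjusted p = 0.0333, limma) and -0.94 in knockouts (SE 0.22, adjusted p = 0.00363), so the 30 °C mean was 1.60 and 2.08 times the 22 °C mean. The call in controls was lost (adjusted p 0.079 to 0.102) when control 1 or 2 at 22 °C or control 2 or 3 at 30 °C was left out, with GC correction (log2 fold change -0.44, adjusted p = 0.134), with no filter (0.0623) or with the 2 groups fitted alone (0.0539). The Elovl1 transcript is 53.5% G and C, above the median of 50.6% of tested genes, while Elovl5 and Elovl6 are at 46.6% and 46.1%. Macrophage markers moved with Elovl1: 7 of 12 were called lower at 22 °C in controls and 12 of 12 in knockouts. Of all tested genes, 20.5% and 29.3% were called lower. Other markers were also called lower in knockouts: 4 of 4 for nerve or Schwann cells, 4 of 5 for fibroblasts or progenitors and 3 of 4 for lymphocytes. In controls, 1 of each of these 3 lists was called lower. Of 12 brown adipocyte markers, 9 were called higher in knockouts, and 0 of 12 skeletal muscle markers were called. The part of any of these cells in the Elovl1 difference was not tested.

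**Figure D2:**
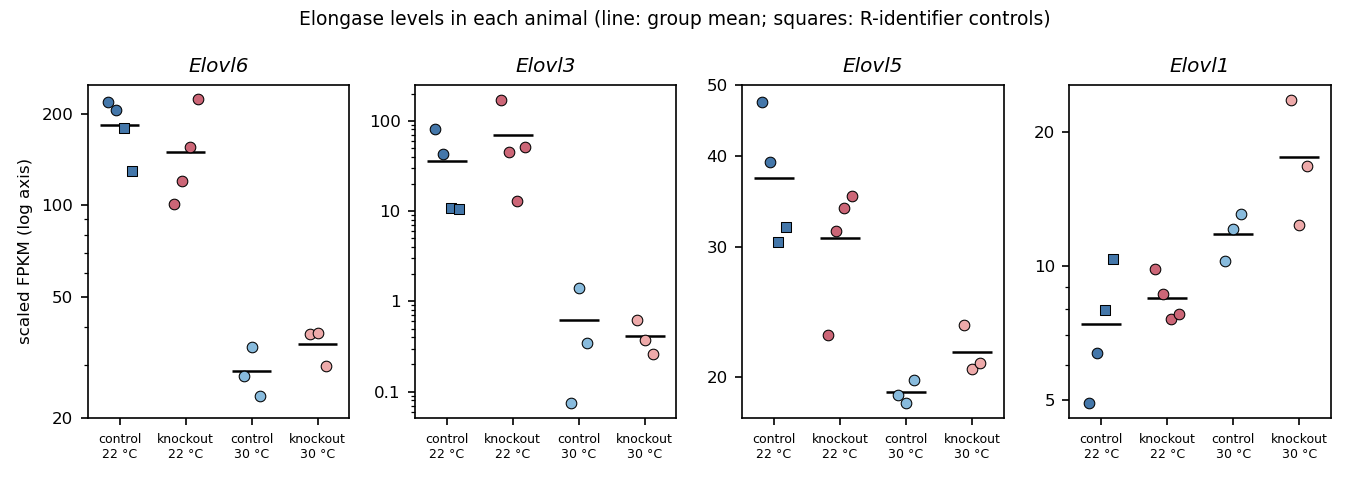
Scaled FPKM (log axis, its range set for each gene) of the 4 tested elongases in each animal by genotype and housing temperature; lines are group means and squares are the R-identifier controls. Elovl6 and Elovl3 at 22 °C lie above every 30 °C animal, Elovl1 in 30 °C knockouts (12.4 to 23.7) lies above every 22 °C animal, and genotypes at 22 °C overlap in every panel.

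The groups failed to overlap for 3 of the 4 tested members in controls (Elovl3, Elovl5 and Elovl6) and for 3 of 4 in knockouts (Elovl1, Elovl3 and Elovl6), against 43.5% and 55.8% of all tested genes. Elovl3 is in these counts only because its level at 22 °C passed the filter. Beyond levels, the proportions between members differed with temperature. The ratio of Elovl6 to Elovl5 was 4.96 ± 0.789 (SD, n = 4) in 22 °C controls and 4.78 ± 1.07 (SD, n = 4) in 22 °C knockouts. At 30 °C it was 1.51 ± 0.338 (SD, n = 3) and 1.63 ± 0.222 (SD, n = 3), so all 8 animals at 22 °C (lowest 3.78) were above all 6 at 30 °C (highest 1.87). Dividing a library by a single factor leaves such a ratio as it is, but quantile normalization does not.

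Loss of Lrpprc was the second comparison, and no elongase passed the test in it. At 22 °C, 0 of 4 tested members were called, where 1.97% of all genes were, and 0 of 4 had groups that did not overlap, against 9.38%. At 30 °C, 0 of 4 were called against 14.1% of all genes, and 1 of 4 (Elovl5) had groups that did not overlap, against 36.8%. A p that misses the threshold does not show equal levels, and the intervals below give what the data allow.

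At 22 °C the knockout mean of Elovl6 was 150 ± 53.4 scaled FPKM against 184 ± 39.0 in controls (SD, n = 4 each), a log2 difference of -0.33 with a 95% interval of -0.82 to 0.16 (adjusted p = 0.526, limma). Elovl5 was 30.9 ± 5.63 against 37.2 ± 7.69 (SD, n = 4 each), a difference of -0.26 with an interval of -0.58 to 0.06 (adjusted p = 0.44). Knockout 1 at 22 °C had the lowest Elovl6 and Elovl5 of the 8 animals and the highest Elovl3. Elovl1 was 8.48 ± 1.03 against 7.42 ± 2.35 (SD, n = 4 each), a difference of 0.21 with an interval of -0.23 to 0.65 (adjusted p = 0.675).

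Elovl3 was the member with the widest spread. Its 22 °C means were 69.8 ± 69.3 in knockouts and 36.2 ± 33.2 in controls (SD, n = 4 each), a ratio of 1.93, but the log2 difference of 0.88 had an interval from -0.65 to 2.41 (adjusted p = 0.595, limma). Without knockout 1 the ratio of means was 0.998, without control 1 it was 3.25, and with both R-identifier controls left out the log2 difference was -0.30 (adjusted p = 0.846). Those 2 controls also had the highest skeletal muscle marker sums at 22 °C (8404 and 4949, against 609 to 1832 in the other 6 animals). Among the 22 °C controls they had the lowest Ucp1 (1309 and 1521, against 3161 and 2471 scaled FPKM). They also had the lowest Lrpprc of these controls (36.2 and 25.3, against 57.3 and 50.6). With a skeletal muscle score as covariate, the log2 difference of Elovl3 between genotypes was 0.75 (adjusted p = 0.655, limma). What set the Elovl3 level of those 2 controls was not tested. At 22 °C these data therefore leave both a fall and a severalfold rise of Elovl3 within the interval.

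At 30 °C, Elovl5 was 20.5 to 23.5 scaled FPKM in knockouts and 18.4 to 19.8 in controls, a small difference without overlap (ratio of means 1.14; log2 difference 0.18, interval -0.20 to 0.55, adjusted p = 0.559, limma). Elovl6 was 35.2 ± 4.86 against 28.5 ± 5.43 (SD, n = 3 each), with a log2 difference of 0.30 (interval -0.26 to 0.87, adjusted p = 0.50). Elovl3 was 0.418 ± 0.184 against 0.615 ± 0.713 (SD, n = 3 each), from 43 and 49 reads in all (log2 difference -0.11, interval -1.88 to 1.66, adjusted p = 0.951).

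Elovl1 came nearest to a knockout difference. Its 30 °C mean was 17.6 ± 5.72 scaled FPKM in knockouts and 11.9 ± 1.41 in controls (SD, n = 3 each), a ratio of 1.49 and a log2 difference of 0.49 (interval -0.01 to 1.0, adjusted p = 0.188, limma). With FPKM as deposited the difference was 0.78 (adjusted p = 0.0269) and Elovl5 was called too (0.46, adjusted p = 0.033), beside a shift of the median gene of 0.31. With sample weights from limma's arrayWeights Elovl1 was also called (0.53, adjusted p = 0.0335). The 3 knockouts had 23.7, 12.4 and 16.8 for Elovl1 and 2397, 772 and 1214 for the summed macrophage markers, the same order. That order also held for skeletal muscle (10332, 2515 and 8004), nerve or Schwann cell (105, 41.5 and 69.0) and fibroblast or progenitor sums (757, 378 and 482). It held for white adipocyte sums too (297, 224 and 262). It did not hold for endothelial, lymphocyte, brown adipocyte or skin and sebaceous gland sums. In 22 °C knockouts, Elovl1 (9.86, 8.66, 7.59 and 7.80) and macrophage sums (125, 259, 114 and 157) were ordered differently. Over all tested genes, 1153 of 13079 were called higher in 30 °C knockouts. Of the 12 macrophage markers, 11 were called higher in 30 °C knockouts with a median log2 difference of 2.05. Of 5 tested markers of fibroblasts or adipocyte progenitors, 4 were called higher, with sums of 378 to 757 in knockouts, highest in the same knockout 1, against 199 to 229 in controls. Sums of 6 endothelial markers were 724 to 803 against 350 to 362, with 1 of 6 called. That marker, Cldn5, averaged 547 scaled FPKM in knockouts and 104 in controls. It was the only 1 of the 6 with a positive log2 difference, and the median over the 6 was -0.22. The part of these cells in the Elovl1 values was not tested.

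The knockout effect was also compared between temperatures, as the difference of the log2 differences at 22 °C and at 30 °C. It was -0.63 for Elovl6 (SE 0.35, adjusted p = 0.482), -0.43 for Elovl5 (SE 0.23, adjusted p = 0.457), 0.99 for Elovl3 (SE 1.09, adjusted p = 0.744) and -0.29 for Elovl1 (SE 0.31, adjusted p = 0.741; limma throughout). Thus 0 of 4 members were called, as were 0.0% of all genes in limma, where 1692 genes had an unadjusted p under 0.05 and voom on recovered reads also called 0.

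**Figure D3:**
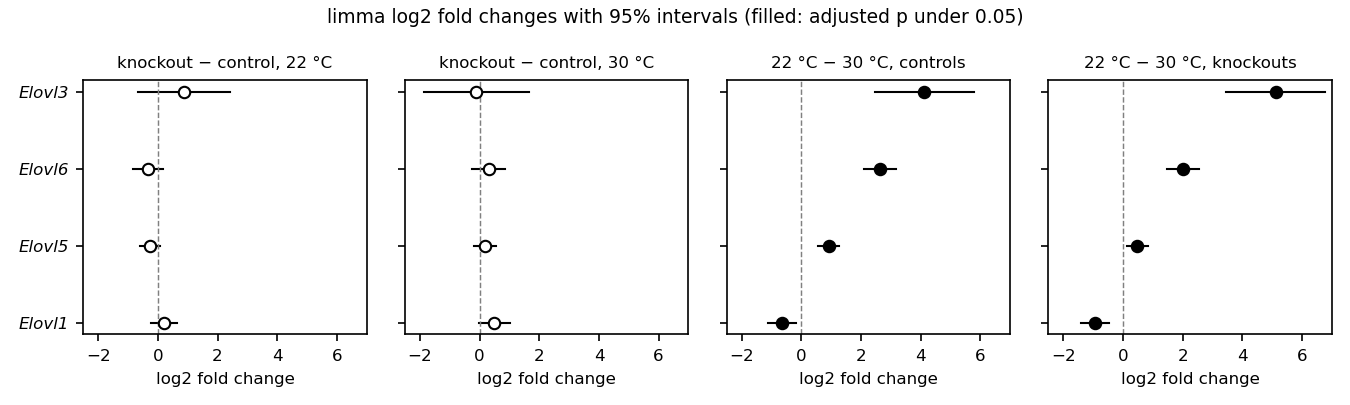
Log2 fold changes (points) with 95% intervals (lines) of the 4 tested elongases in the 2 knockout comparisons and the 2 temperature comparisons; filled points have an adjusted p under 0.05. Intervals of both knockout comparisons include 0 for every member, and Elovl3 has the widest interval in each panel.

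The 3 remaining members were read from single reads. Elovl2 (ENSMUSG00000021364), which lengthens long polyunsaturated chains, had 1, 4, 4 and 1 reads in 22 °C controls, 6, 3, 1 and 3 in 22 °C knockouts, and 3, 2 and 5 in 30 °C controls. In 30 °C knockouts it had 51, 4 and 0 reads, where a count of 0 allows up to 3. The library with 51 reads (0.565 scaled FPKM) is knockout 1, which also had the highest Elovl1 of all 14 animals and the highest macrophage marker sum, and the highest sum of 6 nerve or Schwann cell markers (105, against 11.8 to 69.8 in the other 13 animals).

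Elovl4 (ENSMUSG00000032262), the elongase of the longest chains, had 20, 11, 1 and 12 reads in 22 °C controls and 12, 6, 10 and 11 in 22 °C knockouts. At 30 °C it had 5, 18 and 5 in controls and 8, 8 and 4 in knockouts, so all groups overlap. Elovl7 (ENSMUSG00000021696), which acts on saturated chains, had 5, 2, 5 and 12 reads in 22 °C controls and 14, 14 and 13 in 30 °C controls. Knockouts had 13, 7, 2 and 10 at 22 °C and 18, 12 and 3 at 30 °C. The Elovl7 groups of controls did not overlap (at most 0.136 scaled FPKM at 22 °C and at least 0.138 at 30 °C), but those of knockouts did. With no expression filter, none of these 3 members was called in the comparisons run. A bound drawn from a read number covers counting error alone and not differences between animals, and amplification copies molecules.

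Of the members that were higher at 22 °C, Elovl5 and Elovl6 varied together more closely within groups than either did with Elovl3. Over the 14 animals, which share their groups and libraries, log2 levels of Elovl5 and Elovl6 had a Pearson r of 0.922, and 0.668 after group means were removed. For Elovl3 and Elovl6 r was 0.868, but 0.099 after group means were removed, for Elovl3 and Elovl5 it was 0.747 and 0.071, and for Elovl1 and Elovl6 it was -0.799 and -0.516. These are descriptions and carry no test. The genes whose pattern was most like each member, among those whose mean reached 5 FPKM in some group, were found in the same way.

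For Elovl3 they were Gk, glycerol kinase and itself a cold-linked gene of brown fat (r = 0.982, and 0.906 without group means), Tor1aip1 (0.976 and 0.891) and Slc25a46 (0.975 and 0.867). Gk was 46.3 scaled FPKM on average in 22 °C controls, 54.9 in 22 °C knockouts, 5.12 in 30 °C controls and 5.50 in 30 °C knockouts. For Elovl6 they were Mpc1-ps (0.983 and 0.828), a pseudogene whose reads may be shared with its parent gene, Ppil4 (0.980 and 0.735) and Fasn (0.977 and 0.843), the fatty acid synthase that makes palmitate.

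For Elovl5 they were Styx (0.968 and 0.885), Sept2 (0.963 and 0.927) and Tm9sf3 (0.959 and 0.873). For Elovl1 they were Ucp2 (0.973 and 0.969), a mitochondrial carrier known to be high in macrophages, Actn1 (0.973 and 0.964) and Plekho1 (0.972 and 0.895). Ucp2 was 16.5, 23.2, 49.3 and 92.4 scaled FPKM on average in 22 °C controls, 22 °C knockouts, 30 °C controls and 30 °C knockouts. Because Ucp2 was chosen by its correlation with Elovl1, sharing the order of groups with it is no separate result.

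The enzymes that work with the elongases in each round of lengthening moved with temperature only in part. Of 6 tested partners, 2 were higher at 22 °C in both genotypes: Hsd17b12, the ketoacyl-CoA reductase (log2 fold change 1.57 in controls, adjusted p = 0.000205, and 1.78 in knockouts, adjusted p = 3.49e-05, limma), and the dehydratase Hacd2 (1.19 and 0.87, adjusted p = 0.00168 and 0.00505). Tecr, the reductase that ends the round, was at -0.05 in controls and -0.16 in knockouts and was not called. Hacd4 was lower at 22 °C in knockouts (-0.70) and, at 30 °C, higher in knockouts than in controls (0.55, adjusted p = 0.0297). The median over the 6 was -0.02 in controls and -0.01 in knockouts, close to the -0.05 and -0.07 of all tested genes. Of all tested genes, 18.2% were higher at 22 °C in controls and 21.8% in knockouts.

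Elovl6 depends on malonyl-CoA and palmitate, and a list of genes for their supply and turnover was counted next. Of 10 tested genes, 8 were higher at 22 °C in both genotypes and 0 lower, where 18.2% of all tested genes were higher in controls and 21.8% in knockouts. The median log2 fold changes of the list were 1.74 and 1.53, below those of Elovl6, and Mcat and Mlycd were called in neither genotype. Fasn was 2600 scaled FPKM on average in 22 °C controls, 2447 in 22 °C knockouts, 334 in 30 °C controls and 452 in 30 °C knockouts. Acaca, the acetyl-CoA carboxylase that makes malonyl-CoA, had log2 fold changes of 2.51 and 2.45, close to the 2.63 and 2.0 of Elovl6. Acacb and Thrsp, both of that supply list, were lower in knockouts at 30 °C (log2 differences -1.03 and -1.20, adjusted p = 0.0134 and 0.00541), where Elovl6 was not called.

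Desaturases, which put double bonds into the same chains, split. Scd1, which acts on stearate, was higher at 22 °C in controls (2.95) and knockouts (2.42), as was Scd2 (1.0 and 0.81), whereas Fads1 and Fads2, which act beside Elovl5 on polyunsaturated chains, were lower (-0.66 and -0.98 for Fads1, -0.72 and -0.87 for Fads2). So 2 of 7 were called higher and 2 lower in controls, and 2 higher and 4 lower in knockouts. All tested genes had 18.2% higher and 20.5% lower in controls, and 21.8% and 29.3% in knockouts. In knockouts at 30 °C, Fads1 was higher than in controls (0.54, adjusted p = 0.0263), as was Fads3 (1.79, adjusted p = 0.012). Scd3 was higher in knockouts at 22 °C (2.19, adjusted p = 0.0109) and at 30 °C (1.45, adjusted p = 0.0413), from 0.143 to 5.23 scaled FPKM on average at 22 °C.

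The genes on either side of elongation were counted in the same way. Of 7 acyl-CoA synthetases, 4 were higher at 22 °C in controls and 5 in knockouts (1 lower), with Acsl5 at 2.30 and 2.69. Of 10 peroxisomal genes that shorten very long chains, 4 in controls and 5 in knockouts were higher and 0 lower, and of 6 genes that use these chains for ceramides and related lipids, 0 were called in controls and 3 were lower in knockouts. Over all tested genes, 18.2% were higher and 20.5% lower in controls, and 21.8% higher and 29.3% lower in knockouts. Acox2, a peroxisomal oxidase, was higher in knockouts at 22 °C (1.15, adjusted p = 0.0378) and at 30 °C (1.35, adjusted p = 0.00994), and the ceramide synthase Cers6 at 30 °C (0.54, adjusted p = 0.0392). Slc27a2, an acyl-CoA synthetase of very long chains, was lower in 30 °C knockouts (-1.58, adjusted p = 0.00323), as were Acsl1 (-0.82, adjusted p = 0.0381) and Acaa1a (-0.51, adjusted p = 0.0078).

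**Figure D4:**
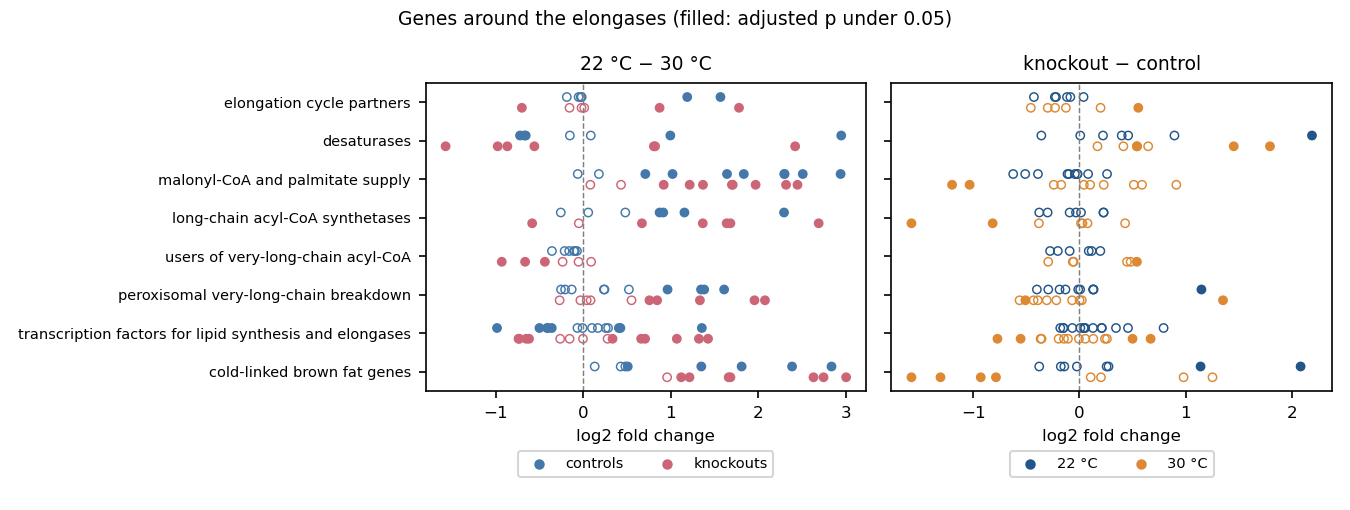
Log2 fold changes of the tested genes of 8 lists around the elongases, 22 °C against 30 °C on the left (controls and knockouts) and knockout against control on the right (22 °C and 30 °C); filled points have an adjusted p under 0.05. The list of malonyl-CoA and palmitate supply lies mostly to the right of 0 on the left side (8 of 10 called higher in each genotype), and few points are filled on the right side.

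The list of transcription factors known for these genes also holds Scap, Insig1 and Insig2, which escort or hold back SREBP. Of its 14 genes, all tested, 3 were higher and 5 lower at 22 °C in controls, and 6 higher and 4 lower in knockouts. The shares over all tested genes were 18.2% higher and 20.5% lower in controls, and 21.8% and 29.3% in knockouts. Without those 3 genes, 1 of 11 factors was higher (Mlx, not called with FPKM as deposited or equal nuclear totals) and 4 were lower in controls, and 4 were higher and 3 lower in knockouts. Srebf1, the gene of SREBP-1, was at -0.07 and -0.27 and was not called, with 107, 106, 110 and 123 scaled FPKM on average in 22 °C controls, 22 °C knockouts, 30 °C controls and 30 °C knockouts. Insig1 was higher at 22 °C (1.36 and 1.43). Mlxipl, the gene of ChREBP, was higher at 22 °C in knockouts (0.71) and was lower in knockouts than in controls at 30 °C (-0.55, adjusted p = 0.0362). At 30 °C, Srebf2 (0.67, adjusted p = 0.0022) and Ppard (0.50, adjusted p = 0.012) were higher in knockouts and Nr1d1 (-0.77, adjusted p = 0.0098) was lower.

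Cold-linked brown fat genes, of which Elovl3 is usually counted one, were set beside it. Of 8 tested, 5 were higher at 22 °C in controls and 7 in knockouts, against 18.2% and 21.8% of all tested genes; of the 5, Cidea was not called under any of the 3 other scalings. The medians were 0.93 and 1.67, with Gk at 2.84 and 3.01; the Elovl3 differences of 4.12 and 5.11 lie above each of the 8. Between genotypes at 22 °C, Ppargc1a (1.14, adjusted p = 0.0412, limma) and Fgf21 (2.08, adjusted p = 0.0407) were higher in knockouts than in controls. Fgf21 was low in these controls (0.161 scaled FPKM on average) and ranged from 1.28 to 15.3 in the knockouts. At 30 °C, Ucp1 (-1.31, adjusted p = 0.0302), Cidea (-0.79, adjusted p = 0.0213), Cox7a1 (-0.93, adjusted p = 0.00574) and Slc27a2, which is in this list too, were lower in knockouts than in controls. Elovl3 was called with neither set. Under other scalings several of these knockout calls were lost: with quantile normalization those of Acox2 and Fgf21 at 22 °C and of Scd3, Thrsp, Acsl1, Cers6, Mlxipl, Ucp1, Cidea and Cox7a1 at 30 °C, and with FPKM as deposited those of Acsl1, Acaa1a, Mlxipl, Nr1d1 and Cidea at 30 °C.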

How the data were processed

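The authors deposited 1 FPKM value per gene and animal, with Ensembl identifiers. The labels name Illumina libraries of total RNA, and mm9 is the build in the submitters' processing notes; the aligner, counter, strandedness and annotation are not given in the sources used here. Without strand, reads of overlapping genes cannot be told apart. Symbols were matched for 34490 of 35275 genes. Depth was recovered from the steps between low values of genes with 1 transcript (91.0% to 92.7% of the values tested were whole reads within 0.05). Read numbers of Elovl2, Elovl3, Elovl4 and Elovl7 used a gene length fitted so that their low values became whole reads. The fitted length was 1493 bases for Elovl3 (1975 in the annotation) and 5448 for Elovl7 (4013). It was 3796 for Elovl2 (3966) and 3006 for Elovl4 (3026). The read numbers scale with that length. Each library was divided by its median ratio over 10021 nuclear genes that reached 1 FPKM in all libraries (factors 0.822 to 1.20). Groups came from genotype and temperature in the labels, with no pairing. Each animal is 1 replicate.

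The 13079 genes at 1 FPKM or more in 3 or more of 14 animals were fitted as log2(scaled FPKM + 1) with limma 3.58.1 in R 4.3.3 (lmFit, eBayes with trend, 1 mean per group); Benjamini-Hochberg adjustment ran over all 13079, and adjusted p under 0.05 was called. Fold changes are on that scale and intervals are 95%. The script was tested on simulated data. Members and lists were chosen with earlier results of these data known. The rule for named genes took all 7 members, list genes called in a knockout comparison (otherwise the 2 with the largest difference) and the 3 genes most like each member over 14 animals; Hsd17b12, Hacd2, Tecr, Scd1, Scd2, Fads2, Acaca, Acsl5, Insig1, Srebf1, Mlx, Mcat and Mlycd were named after their values were seen. Alternatives covered scaling, pseudocount, filter, model, sample weights, a muscle covariate, the R-identifier controls and each animal left out. A GC correction and voom on recovered reads were added after seeing the data.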

Additional observations from a re-analysis of the deposited data

Results flagged for a closer look

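Elovl4 stood apart in 1 animal. In knockout 2 at 22 °C it was 0.0933 scaled FPKM, from 6 reads, while the other 3 knockouts at that temperature lay close together, at 0.188 to 0.198. Its distance from the others was large for the range of the group of 4. With 14 groups of 4 animals examined and about 1 in 20 flagged by chance, a single case carries little weight, and a difference of a few reads is near counting error.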

How the results depend on the processing

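Across 28 alternatives (27 for the difference between temperatures), Elovl6 and Elovl3 stayed higher at 22 °C and called in both genotypes, and Elovl1 stayed called in knockouts and Elovl5 in controls. Elovl1 in controls and Elovl5 in knockouts kept their direction and were called in 21 of 28 each. No member was called at 22 °C or in the difference between temperatures under any alternative run. At 30 °C, 2 members were called with FPKM as deposited and 1 with arrayWeights, and none otherwise. Some knockout differences that were not called changed sign: Elovl3 at 22 °C to -0.30, and the difference between temperatures to 0.02 for Elovl1 and -0.19 for Elovl3, all without the R-identifier controls; Elovl5 at 22 °C to 0.038 with FPKM as deposited; and Elovl3 at 30 °C to 0.017 with a pseudocount of 0.1, 0.18 with the muscle covariate and 0.14 with voom, with a range of -0.36 to 0.23 when 1 animal was left out (highest without control 2). The cause was not tested. Counts over all genes moved with scaling, weights, filters and single animals: 258 at 22 °C became 3248 with FPKM as deposited (3167 higher, 81 lower, against 119 and 139), 906 with arrayWeights, 460 with equal nuclear totals, 130 with no filter and 83 with the compared groups alone, and 71 to 308 otherwise (lowest without knockout 2 at 22 °C); 1845 at 30 °C (1153 higher, 692 lower) became 4571 (4280 and 291), 3650 with arrayWeights, and 817 without knockout 1, with quantile normalization at 887 higher and 935 lower. In controls 5071 became 2751 with GC correction and in knockouts 6691 became 4250 with a minimum mean FPKM of 5; the 0 genes of the difference between temperatures became at most 212 (arrayWeights) and 135 (without knockout 2 at 30 °C). Depth limits Elovl2, Elovl4, Elovl7 and Elovl3 at 30 °C to a few reads. Groups of 3 or 4 animals, an R-identifier split within 1 group and sex-linked genes that follow temperature limit the rest. No paired analysis was possible because the labels give animals and no pairing.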
